A study of Mus musculus with 19 samples.

Results

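The SOCS family of feedback inhibitors comprises 8 genes, *Socs1*, *Socs2*, *Socs3*, *Socs4*, *Socs5*, *Socs6*, *Socs7* and *Cish*. They were taken by symbol and not by a threshold on their values, and all 8 were found among the 60567 entries measured by RNAseq in cells sorted from the mouse hippocampus. Where a symbol stood on several entries, the entry with the highest total over all samples was taken. *Socs2*, *Socs4* and *Socs6* each had 1 other entry.

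All mice were male, on a C57bl6 background and 9 months old, and all had received adeno-associated viral vectors (AAV) in the hippocampus. The vectors carried the synthetic gfaABC1D promoter, derived from the promoter of *GFAP*, which drives expression in astrocytes. WT-GFP mice were wild-type littermates given AAV-GFP, and APP-GFP mice were transgenic APP/PS1dE9 mice, a model with amyloid plaques, given AAV-GFP. APP-SOCS3 mice were APP/PS1dE9 mice given AAV-SOCS3, which encodes the murine protein, together with AAV-GFP at the same total viral load, so GFP marks infection with the GFP vector and not SOCS3 itself. There were 7 samples of WT-GFP, 4 of APP-GFP and 5 of APP-SOCS3 astrocytes, all GFP+, and 3 samples of the GFP- cells of WT-GFP mice, which the labels describe as holding microglia, neurons and astrocytes that were not infected. The methods state that the left and right hippocampus of a mouse were handled and sorted apart. By the methods, GFP+ and GFP- cells were both collected in a sort, so WT-GFP and GFP- samples could come from the same hippocampi. The main tests treat them as independent. The study counts the samples of each astrocyte group as mice, but the labels do not tie samples to mice, so 2 samples could come from 1 mouse, and the *p* values measure the spread between these samples only.

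SOCS proteins are classical feedback inhibitors of cytokine signalling. Cytokine receptors activate JAK kinases and STAT transcription factors, STATs induce *Socs* genes, and the SOCS proteins then bind the receptor or the kinase through an SH2 domain. Their SOCS box recruits elongins and cullin 5, which leads to ubiquitination of the bound protein, and SOCS1 and SOCS3 can also block the kinase directly. In astrocytes, STAT3 acts downstream of receptors of the gp130 family and is widely associated with reactivity, and SOCS3 is the family member best known for limiting it.

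To show the STAT motifs near these genes and which part of *Socs3* the data resolve, sequences were taken from the reference. RefSeq promoter windows (GRCm38.p6, 250 bases before to 50 after the gene start) were matched for 4 of the 8 genes, *Socs1*, *Socs3*, *Socs4* and *Cish*. The STAT motif TTCNNNGAA, searched on both strands, occurs in 8.47% of 27025 windows. It occurs once in *Socs3*, starting 154 bases before the gene start, and at 2 places in *Cish*, which start at bases 1 and 12 from its RefSeq start, and it does not occur in the windows of *Socs1* and *Socs4*. The interferon response motif, GAAA followed after 2 bases by GAAA and searched on both strands, was found in 3.49% of the windows and occurs at 2 overlapping places in *Socs1*, which start 83 and 77 bases before its start, and in none of the other 3 windows. These matches describe letters and not bound sites. Printed 5′ to 3′ with the STAT motif in capitals are the part of the *Socs3* window up to the first base of a GENCODE exon (chr11:117969452-117969616, minus strand) and the 20 bases from the RefSeq start of *Cish* (chr9:107296659-107296678, plus strand). Other GENCODE transcripts start farther upstream, so the *Socs3* stretch lies in an intron of one of them and the *Cish* stretch in a first exon. The last line gives the final 20 coding bases of *Socs3* (chr11:117967553-117967572, minus strand) with the stop codon in capitals, taken from the GENCODE M21 transcript, since an unnamed entry described further on ends there.
Socs3 promoter: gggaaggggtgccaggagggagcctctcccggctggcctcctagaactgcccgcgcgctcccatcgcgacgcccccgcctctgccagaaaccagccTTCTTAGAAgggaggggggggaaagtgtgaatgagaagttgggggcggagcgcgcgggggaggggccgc
Cish start: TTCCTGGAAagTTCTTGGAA
Socs3 coding end: agtatgatgctccacttTAA

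Levels are the reads of each entry divided by the size factor of the sample, called normalized mRNA levels here, and 1 read was worth 0.756 to 1.18 units. The reads assigned to genes numbered 19331876 to 32621917 in a library. In 4 libraries, WT-GFP 1, 2 and 3 and APP-GFP 2, fewer than 20000 genes were detected (15575 to 19198), against 21602 to 31897 in the other libraries. Of the 12 values of SOCS genes with at most 3 reads in GFP+ astrocytes, 8 fell among the 32 values of these 4 libraries and 4 among the 96 values of the other GFP+ libraries, so results are also given without these 4 libraries where a call changes. A count of 0 allows a level of up to 2.28 to 3.53 in GFP+ samples (3 reads). Reads amplified by PCR are not independent molecules, so this limit covers counting error only. The summed levels of 15 astrocyte marker genes were 876643 to 1419970 in GFP+ samples and 34230.3 to 109376 in GFP- samples, and all 15 were higher in WT-GFP astrocytes than in GFP- cells.

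*Socs3*, which encodes the inhibitor of gp130 receptor signalling, lies on chromosome 11 from 117966089 to 117969366 of mm10 (minus strand). Its normalized mRNA levels in WT-GFP astrocytes ranged from 458 to 1208 (median 809, n = 7). In APP-GFP astrocytes they were 1148, 438, 1639 and 1089.8, and overlapped those of WT-GFP. In APP-SOCS3 astrocytes they were 14488, 37750.1, 13296, 15732 and 16050.4, each above every WT-GFP and APP-GFP sample. GFP- cells, without any SOCS3 vector, had levels of 15824, 10319.7 and 17689, which overlapped those of APP-SOCS3 astrocytes at the deposited size factors. The mean was 19463 ± 10281 in APP-SOCS3 (SD, n = 5) and 14611 ± 3831 in GFP- cells (SD, n = 3), a difference within the spread of the samples (*p* = 0.5, 2-sided exact permutation test). This likeness depends on scaling. The factors for equal upper quartiles, by which levels are divided, were 1.46 to 1.56 in GFP- and 0.83 to 0.93 in APP-SOCS3 samples. Such rescaling lowers GFP- levels and raises those of APP-SOCS3, so the overlap is given for the deposited scaling only.

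*Cish*, which encodes the inhibitor first described as a STAT5 target, lies on chromosome 9 from 107296659 to 107302784 (plus strand) and overlaps an antisense gene and a pseudogene in the annotation, so its levels are uncertain where strand was not used. It was at 0 in 3 of 7 WT-GFP, 1 of 4 APP-GFP and 2 of 5 APP-SOCS3 samples. The highest GFP+ level was 299.8, in WT-GFP 2, and the median in WT-GFP was 48.4. GFP- cells had 498, 329.7 and 493.2, each above every GFP+ sample.

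*Socs2*, which encodes the inhibitor of growth hormone receptor signalling, lies on chromosome 10 from 95411490 to 95416857 (minus strand). Its levels were 0 to 93.3 in WT-GFP (median 36.1, n = 7), 12.7, 35.1, 52.4 and 26.2 in APP-GFP, and 12.1, 7.44, 25.0, 15.7 and 13.2 in APP-SOCS3. In GFP- cells they were 222, 253 and 298, with no overlap with GFP+ samples. The 3 astrocyte groups overlapped each other, although the APP-SOCS3 values were all at or below 25.0. The other *Socs2* entry (95385362 to 95413111) was also lower in WT-GFP astrocytes than in GFP- cells, with a mean of 19.7 ± 14.6 in WT-GFP (SD, n = 7) and 156 ± 27.7 in GFP- cells (SD, n = 3), but APP-GFP overlapped GFP- cells there, with a highest sample of 146.1 against a lowest of 125.2.

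*Socs1*, which encodes the main inhibitor of interferon receptor signalling, lies on chromosome 16 from 10782243 to 10785538 (minus strand). WT-GFP astrocytes had levels of 73.5 to 379 (median 155, n = 7), APP-GFP astrocytes 229.9, 173, 249.3 and 169, and APP-SOCS3 astrocytes 110.4, 24.2, 156, 202 and 302. GFP- cells had 486, 321 and 472. The highest WT-GFP sample lay above the lowest GFP- sample, so the groups overlapped, while the other 6 WT-GFP samples lay below all GFP- samples. *Socs1* was detected in every sample.

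*Socs4* and *Socs5* encode closely related proteins with long amino-terminal regions that have been tied to EGF receptor signalling. *Socs5* (chromosome 17 from 87107679 to 87137583, plus strand) had levels of 66.3 to 944 in WT-GFP (median 481, n = 7), 1040.1, 699, 669.7 and 489.95 in APP-GFP, and 389.7, 788, 429, 685 and 301 in APP-SOCS3. In GFP- cells *Socs5* levels were 1574, 1476 and 1584, above every GFP+ sample and with the smallest coefficient of variation of the family, 3.85%. *Socs4* (chromosome 14 from 47277012 to 47291591, plus strand) was at 0 in 2 of 7 WT-GFP samples, with a median of 60.9 and a highest level of 132. Its levels were 158, 316, 108.8 and 60.2 in APP-GFP, 55.2, 193, 100.01, 149 and 0 in APP-SOCS3, and 211, 264 and 323 in GFP- cells. GFP- cells lay above all WT-GFP samples, and 2 of the 4 APP-GFP samples lay above the highest WT-GFP sample.

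The other *Socs4* entry (47293612 to 47296098) lies wholly in the 3′ UTR and holds no coding base. Its levels were 0 to 81.2 in WT-GFP (median 27.0, n = 7) and 214, 353, 206 and 100.3 in APP-GFP. Every APP-GFP sample was above every WT-GFP sample, which was not seen for any of the 8 genes at their main entries. In APP-SOCS3 the levels were 155, 44.6, 134, 129 and 125, and in GFP- cells 90.4, 184 and 146.

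*Socs6* and *Socs7* encode proteins linked to insulin receptor and receptor tyrosine kinase signalling. *Socs6* (chromosome 18 from 88688066 to 88894340, minus strand) had levels of 395 to 1034 in WT-GFP (median 579, n = 7), 734, 0, 620.3 and 1039 in APP-GFP, 422, 1050.1, 361, 673 and 635 in APP-SOCS3, and 1598, 1348 and 1839 in GFP- cells. The single 0 was in APP-GFP 2, a library with 16471 genes detected, and GFP- cells again lay above all GFP+ samples. *Socs7* (chromosome 11 from 97362453 to 97398542, plus strand) had levels of 66.1 to 819.9 in WT-GFP (median 199.8, n = 7), 334, 134.7, 396 and 340.002 in APP-GFP, 351, 53.9, 439, 362 and 181 in APP-SOCS3, and 302, 547 and 306 in GFP- cells. For *Socs7*, GFP- 1 and 3 lay within the range of each of the 3 astrocyte groups, and GFP- 2 within that of WT-GFP.

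**Figure D1:**
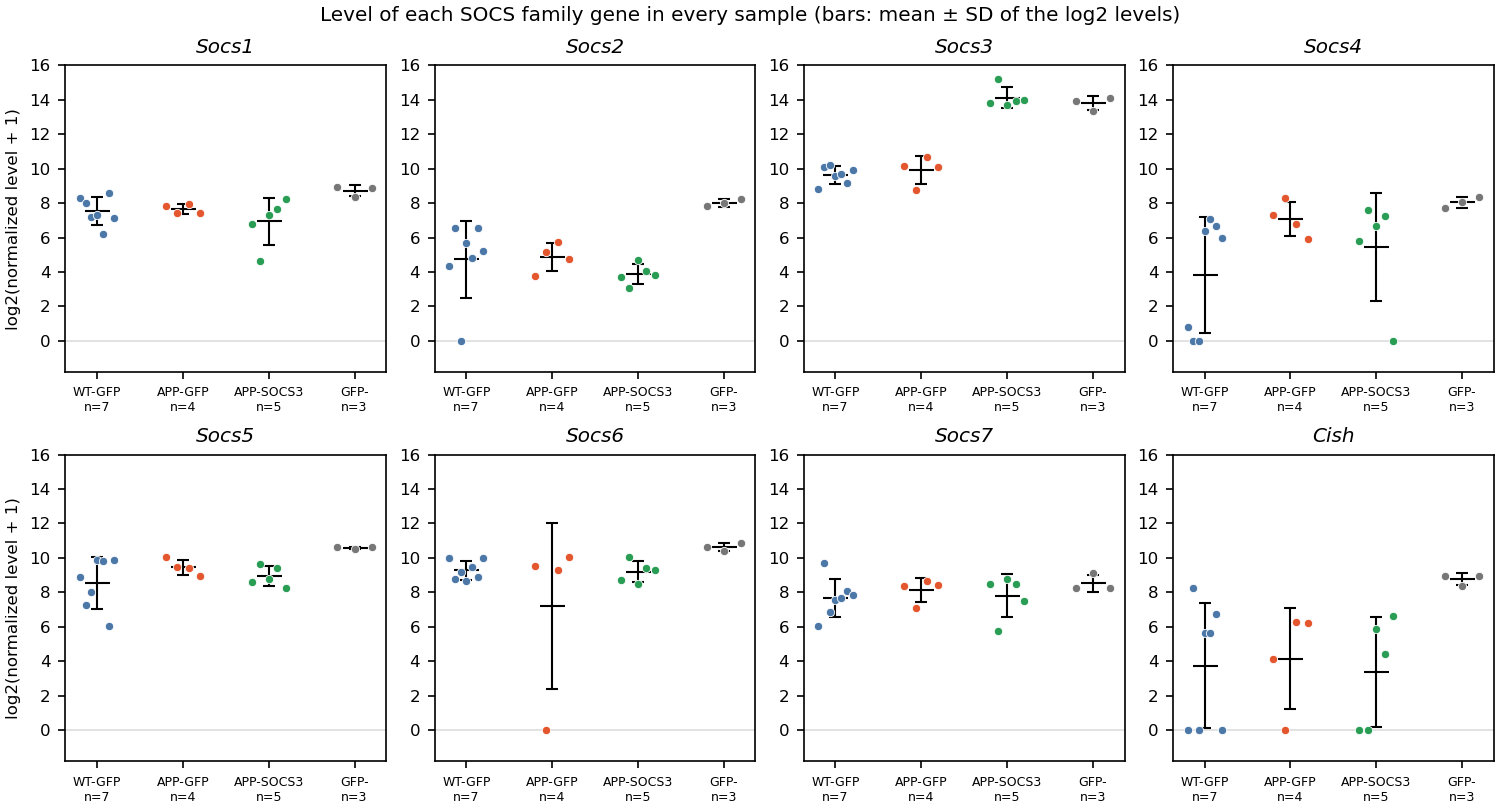
Normalized mRNA levels of the 8 SOCS family genes, as log2(level + 1), in each of the 19 samples, by group, with the mean ± SD of the log2 levels as bars. *Socs3* separates APP-SOCS3 and GFP- samples from the other 11 samples, and zeros are seen in GFP+ samples only, for *Socs2*, *Socs4*, *Socs6* and *Cish*.

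Levels of different genes were compared per kb of merged exons, on the linear scale. By the methods, reads were counted on constitutive regions, so these lengths are not exactly the counted ones. In WT-GFP astrocytes *Socs3* had the highest level per kb, 328 ± 106 (SD, n = 7), above every other member in 7 of 7 samples and without overlap with the next, *Socs5* (86.4 ± 62.9). *Socs1* (71.8 ± 37.6), *Socs6* (62.0 ± 25.1), *Socs7* (37.2 ± 34.7), *Socs4* (23.6 ± 23.9), *Socs2* (13.6 ± 10.7) and *Cish* (12.4 ± 18.6) followed, and each neighbour in this order overlapped the next. *Socs3* was also first, without overlap, in APP-GFP (424 ± 194, n = 4), APP-SOCS3 (7657 ± 4044, n = 5) and GFP- cells (5748 ± 1507, n = 3), and *Socs5* was second in all 4 groups. The last place differed, with *Cish* or *Socs2* in astrocytes and *Socs7* in GFP- cells (53.0 ± 19.3). The lower places depended on the length used: per kb of the longest transcript, *Socs3* (327) and *Socs5* (114.6) stayed first and second in WT-GFP, but *Socs6* (109.7) came before *Socs1* (71.7) and *Socs4* (7.86) was last, as it was in GFP- cells (38.7). The main *Socs4* entry covers 2285 exon bases, against 6877 in its longest transcript, so its last place rests on this mismatch of lengths.

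*Socs3* made up 50.9% ± 11.9 of the summed level per kb of the family for the 7 WT-GFP samples (SD), 50.9% ± 12.5 in APP-GFP (n = 4), 95.9% ± 1.33 in APP-SOCS3 (n = 5) and 86.5% ± 2.54 in GFP- cells (n = 3). The summed level per kb of the other 7 genes was 307 ± 68.2 in WT-GFP, 373 ± 49.7 in APP-GFP and 290.1 ± 59.0 in APP-SOCS3, and these groups overlapped. GFP- cells stood apart at 869 ± 75.3, with a lowest sample of 799.9 against a highest GFP+ sample of 438. At the deposited size factors, the high *Socs3* of APP-SOCS3 astrocytes thus came without a like level of the other members. In GFP- cells both lay above WT-GFP astrocytes. The median log2 fold change over all genes was -1.31 for WT-GFP against GFP- at this scaling. The higher sum of the other 7 genes in GFP- cells was not separated from this shift of all genes.

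**Figure D2:**
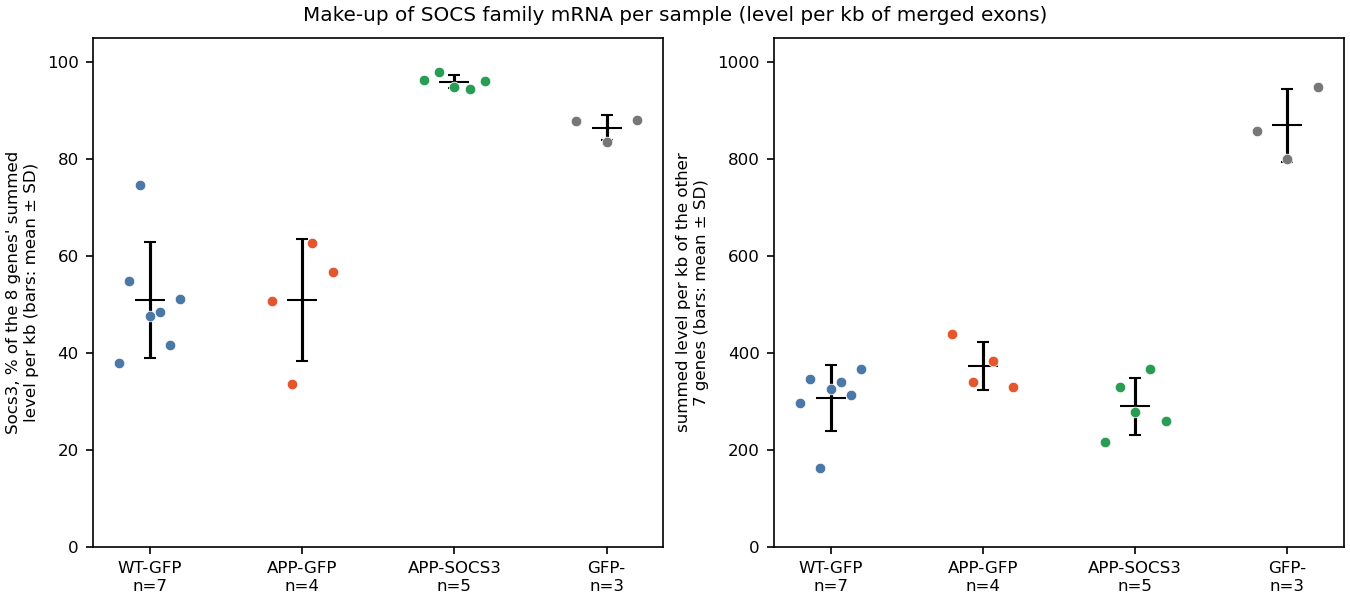
Share of *Socs3* in the summed level per kb of the 8 genes (left) and summed level per kb of the other 7 genes (right) in each sample, with mean ± SD as bars. APP-SOCS3 and GFP- samples both have at least 83.5% *Socs3*. At the deposited size factors, only GFP- samples exceed 438 for the other genes.

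An entry without a symbol lies inside *Socs3*, on chromosome 11 from 117967131 to 117967572. Of its 442 bases, 422 are in the 3′ UTR of *Socs3* and 20 are the coding end printed above with its stop codon. It was looked at after its values were seen, so its ratio to *Socs3* is given as a description. Its level was 20.2% ± 2.00 of that of the *Socs3* entry for the 7 WT-GFP samples (SD), 20.0% ± 0.89 in APP-GFP (n = 4) and 19.4% ± 0.07 in GFP- cells (n = 3), with a range of 16.8% to 22.7% over these 14 samples. In the 5 APP-SOCS3 samples it was 3.95%, 3.65%, 4.05%, 3.75% and 3.58%, with no overlap. The level of the entry itself was 731 ± 362 in APP-SOCS3 (SD, n = 5), 215 ± 93.1 in APP-GFP (n = 4) and 170.5 ± 63.9 in WT-GFP (n = 7), with no overlap between APP-SOCS3 and either group. Its log2 fold change was 1.80 against APP-GFP (95% interval 0.90 to 2.70, adjusted *p* = 0.522, limma) and 2.08 against WT-GFP (1.32 to 2.83, adjusted *p* = 0.0646), and DESeq2 gave adjusted *p* of 0.011 and 4.34e-06, while that of the *Socs3* entry was 4.20 and 4.49. Which *Socs3* bases the AAV-SOCS3 cassette holds beyond the coding sequence is not given in the sources used here, and transcripts of the vector and of the mouse gene cannot be told apart in the *Socs3* entry.

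**Figure D3:**
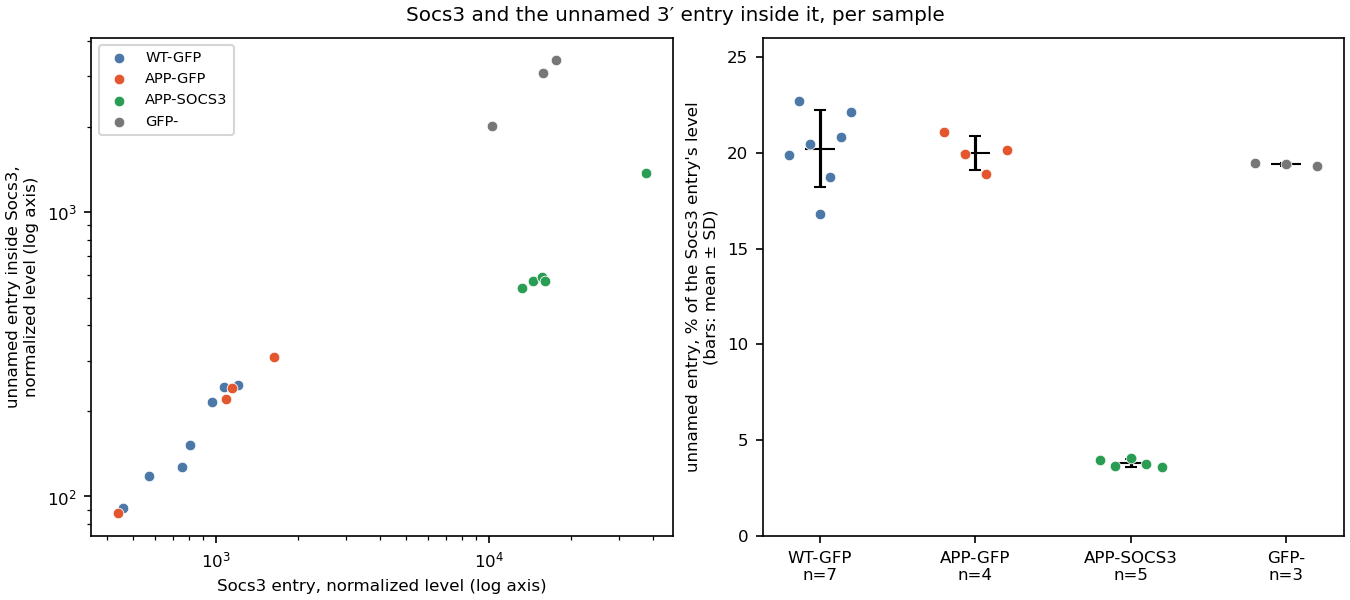
Level of the unnamed entry inside *Socs3* against the level of the *Socs3* entry (left, log axes) and as a percentage of it (right, mean ± SD as bars) in each of the 19 samples. The 14 samples without AAV-SOCS3 lie at 16.8% to 22.7% and the 5 APP-SOCS3 samples at 3.58% to 4.05%. At the deposited size factors, the *Socs3* levels of APP-SOCS3 and GFP- samples overlap.

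The first comparison, GFP+ astrocytes against GFP- cells of WT-GFP mice, asked in which cells the family is expressed. All 8 genes had lower mean log2 levels in astrocytes, and 7 of 8 were called lower at the thresholds of the study (fold change of 1.5 or more with an unadjusted *p* not above 0.05, from limma on log2(level + 1)). Of the 26709 genes tested in this comparison 33.5% were called lower, 9.25% higher and 42.8% in all, and the median log2 fold change was -1.31 over all genes and -2.66 over the 8 members. With adjustment over all genes, 2 of 8 members passed (*Socs3* and *Socs6*), against 31.9% of all genes. Samples of the groups did not overlap for 6 of 8 members, against 34.8% of all genes. In bulk samples, fewer cells of a type and less RNA per cell cannot be told apart.

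*Socs3* was lower in astrocytes by the clearest margin, with a log2 fold change of -4.16 (SE 0.31, adjusted *p* = 7.07e-06, limma), and its mean in GFP- cells was 17.5 times that in WT-GFP astrocytes. *Socs6* passed adjustment as well, with -1.35 (SE 0.34, adjusted *p* = 0.0126, limma), but lay near the median of -1.31 over all genes. With all 19 samples in one fit *Socs6* was not called (adjusted *p* = 0.449, limma). The values of *Socs1* and *Socs7*, given below, were nearer 0 than that median. *Cish* (-5.01, adjusted *p* = 0.0715), *Socs4* (-4.20, 0.103), *Socs2* (-3.27, 0.072), *Socs5* (-2.05, 0.069) and *Socs1* (-1.19, 0.0972) were called without passing adjustment. The log2 values of *Cish*, *Socs4* and *Socs2* rest partly on zeros in WT-GFP. The ratio of mean levels, GFP- over WT-GFP, was 6.12 for *Cish* (12.99 without WT-GFP 2, its highest WT-GFP sample), 4.92 for *Socs4*, 5.65 for *Socs2*, 2.90 for *Socs5* and 2.04 for *Socs1*. *Socs7* was not called (-0.86, 95% interval -2.29 to 0.58). The exact permutation *p* was 0.0167 for the 6 members without overlap, the smallest this design allows, 0.0333 for *Socs1* and 0.233 for *Socs7*. In all, 32 such tests were made over members and comparisons, besides those of the other entries and of the unnamed entry inside *Socs3*.

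These differences depended on scaling more than any others. With levels rescaled to equal upper quartiles the median over all genes moved by 0.85 on the log2 scale and 1 of 8 members was called, *Socs3*. Called members numbered 2 with edgeR and 4 with DESeq2, and *Socs3* and *Socs6* were called with both. Without the 3 WT-GFP libraries with few genes 7 members were called again, but *Socs5* (-1.69) was replaced by *Socs7* (-0.74).

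GFP- cells held markers of several cell types. The summed level of 20 microglial genes was 169259 to 279250 there against 14470 to 53791 in WT-GFP astrocytes, that of 20 endothelial genes 213669 to 339217 against 11611 to 63424, and that of 12 mural genes 137310 to 180491 against 3963 to 34694. All 20, all 20 and all 12 genes were called lower in astrocytes, as were 9 of 9 genes of oligodendrocyte precursors, 7 of 8 of perivascular macrophages, 8 of 14 of neurons and 3 of 9 tested of oligodendrocytes. Of the last list *Cnp* (1.52) and *Mbp* (0.89) were called higher. The summed level of the oligodendrocyte list was 2888 to 4013 in GFP- cells against 4961 to 7349 in WT-GFP astrocytes, the reverse of the sums above. Of all genes tested, 33.5% were called lower. Of these lists *Gad2*, a neuron gene, was at 0 in all WT-GFP samples and *Opalin*, an oligodendrocyte gene, in all GFP- samples. The part of each cell type in the SOCS levels of GFP- cells was not tested.

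In the same comparison, of 22 cytokine receptors bound by SOCS proteins, 16 were called lower in astrocytes and 2 higher (median -2.82). The 2 higher genes were *Il11ra1*, the interleukin 11 receptor, with levels of 5067 ± 827 (SD, n = 7) against 1541 ± 298 (SD, n = 3) and a log2 fold change of 1.72 (adjusted *p* = 4.89e-05, limma), and *Ghr*, the growth hormone receptor bound by SOCS2, with 717 ± 302 against 305 ± 89.3 (1.17, adjusted *p* = 0.0334). *Il2rb* (-6.48) and *Csf2rb* (-6.41), receptor chains of immune cells, were among the lower ones. Of 11 JAK kinases and STATs, 7 were called lower and none higher (median -2.64), with *Stat6* at -3.11.

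Of 17 gp130 and STAT5 cytokine ligands, 10 were tested and 4 called lower (median -1.06), among them *Osm*, oncostatin M, with 11.9 ± 25.2 in astrocytes (SD, n = 7) and 1008 ± 318 in GFP- cells (SD, n = 3), and *Ifng* (-5.59). By contrast, 1 of 9 genes of the SOCS box ubiquitin ligase was called, *Cul5*, cullin 5 (-1.90, adjusted *p* = 0.084, limma), and the median of this list was 0.10, against -1.31 over all genes. Among 12 other inhibitors of JAK-STAT signalling 6 were called lower (median -1.15), with *Sh2b3* at -3.76 and *Ptpn1* at -1.82. Of 18 STAT3 responsive genes tested 14 were called lower and 1, *Gfap*, higher (3.88), with *Mcl1* at -3.21 and *Timp1* at 0 in all 7 WT-GFP samples against 23.4 ± 13.4 in GFP- cells (SD, n = 3). The median of this list was -2.38. Of 7 STAT5 responsive genes 3 were called lower, *Osm* and *Igf1* (-4.41) among them, and *Pim2* was higher (1.08), with a median of -1.53. All 22 immediate early genes, which respond to stimulation and to tissue dissociation, were called lower in astrocytes (median -3.96), *Btg2* and *Jun* with the smallest *p*. The part of dissociation in the SOCS levels was not tested.

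The second comparison, APP-GFP against WT-GFP astrocytes, asked whether the family changes in astrocytes of mice with amyloid plaques. Of the 8 members 0 were called with limma, and none had an unadjusted *p* under the threshold. edgeR and DESeq2 called 0 as well. Of all 22969 genes tested, 2.23% were called, 1.66% higher and 0.57% lower, and 0.00435% passed adjustment. The median log2 fold change was 0.34 over the members and 0.09 over all genes, and all 8 members overlapped between the groups, while 0.313% of all genes did not.

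*Socs3* had means of 1079 ± 493.004 in APP-GFP (SD, n = 4) and 834 ± 269 in WT-GFP (SD, n = 7), a log2 fold change of 0.29 (95% interval -0.51 to 1.09). Without the 4 libraries with few genes *Socs3* was called higher (0.74, unadjusted *p* = 0.019, adjusted *p* = 0.998, limma), as was *Socs7* (0.69, adjusted *p* = 0.998). Of the rest, *Socs4* had the largest value, 3.24 (-0.25 to 6.73), with 3 of 7 WT-GFP samples at or below 3 reads. All 3 were libraries with few genes. The value was 0.15 without the 4 such libraries, one of which is APP-GFP 2, the sample with the highest *Socs4* level of its group. *Socs6* had -2.07 (-5.29 to 1.15), and 0.37 without these libraries, one of which, APP-GFP 2, holds its single 0. *Socs5* had 0.91 (-0.58 to 2.39), *Socs7* 0.45 (-0.85 to 1.76), *Cish* 0.39 (-3.81 to 4.59), *Socs1* 0.14 (-0.90 to 1.18) and *Socs2* 0.12 (-2.51 to 2.76), where edgeR gave -0.75 for *Cish* and -0.50 for *Socs2*. At these spreads only large differences were detectable for *Cish*, *Socs2*, *Socs4* and *Socs6*.

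The 3′ UTR entry of *Socs4* was higher in APP-GFP, at 218 ± 104 (SD, n = 4) against 36.6 ± 32.6 (SD, n = 7). Its log2 fold change was 3.50 (SE 1.25, adjusted *p* = 0.999, limma) and the exact permutation *p* of 0.00606 was the smallest possible. This entry was looked at after its values were seen, so its separation and these *p* values are given as a description only. It was called by edgeR (2.61) and DESeq2 (2.58) and without the libraries with few genes (2.01), in each case without passing adjustment over all genes. It was also called higher in APP-SOCS3 than in WT-GFP (2.63, adjusted *p* = 0.833, limma), with 4 of 5 samples above all WT-GFP samples, but not by edgeR or DESeq2.

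Few partners were called. *Osm*, the ligand of the oncostatin M receptor, was called higher (4.07, adjusted *p* = 0.999, limma), 1 of 7 ligands tested, with 159 ± 188 in APP-GFP (SD, n = 4) and overlapping groups. None of 20 receptors tested (median 0.65), 10 JAK kinases and STATs (median 0.13) or 9 genes of the SOCS box ubiquitin ligase (median 0.01) was called. *Ptpn1*, a phosphatase that acts on JAK2, was called higher among 12 other inhibitors (1.17, adjusted *p* = 0.999), and *Cebpd* among 17 STAT3 responsive genes (0.87, adjusted *p* = 0.999). *Igf1* (4.12) and *Osm* were called higher among 6 STAT5 responsive genes, and 3 of 22 immediate early genes were, among them *Jun* (0.68) and *Nr4a1* (1.05). Of the marker lists, 2 of 20 microglial genes were called, *Tyrobp* (1.85) and *Trem2* (1.76), with summed microglial levels of 21201 to 124226 in APP-GFP against 14470 to 53791 in WT-GFP. No gene of the astrocyte, perivascular macrophage, endothelial, mural, neuron, oligodendrocyte precursor or oligodendrocyte lists was called. The part of microglial RNA in the values of *Osm* and *Igf1* was not tested.

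The third comparison, APP-SOCS3 against APP-GFP astrocytes, asked what the SOCS3 vector changes, and shares its APP-GFP samples with the second. *Socs3* was called higher, 1 of 8 members, with a log2 fold change of 4.20 (SE 0.39, adjusted *p* = 0.00735, limma) and a ratio of mean levels of 18.0. The adjusted *p* was 0.0718 with edgeR, 6.61e-24 with DESeq2 and 0.817 with the replicate block, and 0.0413 at most when single samples were left out, while the log2 fold change stayed between 3.82 and 4.45. Every APP-SOCS3 sample was above every APP-GFP sample (exact permutation *p* = 0.0159, the smallest possible). The vector encodes murine SOCS3, so a higher level of the *Socs3* entry was built into the design. Of 22844 genes tested, 5.7% were called, 2.33% higher and 3.37% lower, 0.00438% passed adjustment and 2.01% did not overlap.

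None of the other 7 members was called, and all overlapped. Their log2 fold changes were -0.74 for *Socs1* (95% interval -2.14 to 0.67), -0.99 for *Socs2* (-2.71 to 0.74), -1.62 for *Socs4* (-4.65 to 1.40), -0.52 for *Socs5* (-1.24 to 0.20), 1.99 for *Socs6* (-1.78 to 5.76), -0.32 for *Socs7* (-1.65 to 1.00) and -0.75 for *Cish* (-4.73 to 3.23). The median over these 7 was -0.74, against 0.08 over all genes. These members also had lower mean log2 levels in WT-GFP astrocytes than in GFP- cells. Markers of other cells were called lower in APP-SOCS3, as given below, and their part in the values of these 7 members was not tested. The value of *Socs6* was -0.41 without APP-GFP 2 and that of *Socs4* was -0.26 without APP-SOCS3 5, the samples in which each is at 0. The narrowest interval was that of *Socs5*, whose mean was 519 ± 207 in APP-SOCS3 (SD, n = 5) and 725 ± 230 in APP-GFP (SD, n = 4).

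Among the partners, STAT3 responsive genes had a median log2 fold change of -0.87, with 8 of 17 tested called lower and none higher. *Junb* went from 10904 ± 1765 in APP-GFP (SD, n = 4) to 5689 ± 769 in APP-SOCS3 (SD, n = 5), a log2 fold change of -0.93 (adjusted *p* = 0.14, limma), and *Cebpb* from 1386 ± 805 to 398 ± 60.0 (-1.59, adjusted *p* = 0.576), in both cases without overlap. *Stat3* itself, the main transducer of gp130 signalling, was called lower (-0.80, adjusted *p* = 0.641), as was *Jak3* (-5.12, adjusted *p* = 0.641), 2 of 10 JAK kinases and STATs (median -0.17). *Ifnar2*, an interferon receptor chain (-0.65), and *Lepr*, the leptin receptor bound by SOCS3 (at 0 in all 5 APP-SOCS3 samples and 20.7 ± 13.9 in APP-GFP), were called lower, 2 of 21 receptors (median -0.12). *Ptpn6* (-1.47) and *Ptpn1* (-0.79) were called lower among 12 other inhibitors (median -0.13). *Bcl6*, a repressor among 6 STAT5 responsive genes, was called higher (1.15, adjusted *p* = 0.576) with 709 ± 149 (SD, n = 5) against 338 ± 139 (SD, n = 4) and no overlap. None of 6 ligands (median -0.12) and none of 9 genes of the SOCS box ubiquitin ligase (median -0.15) was called.

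Other lists moved in the same comparison. Of 22 immediate early genes 16 were called lower (median -1.17), *Btg2* (-1.03) and *Egr1* (-1.79) without overlap. Of the markers of other cells, 19 of 20 microglial, 18 of 19 tested endothelial, 6 of 8 perivascular macrophage, 5 of 12 mural, 3 of 13 tested neuron, 3 of 9 oligodendrocyte precursor and 1 of 9 tested oligodendrocyte genes were called lower, and none higher. None of 15 astrocyte markers was called. The summed microglial level was 10540 to 20359.6 in APP-SOCS3 against 21201 to 124226 in APP-GFP, and the summed endothelial level 8567 to 15567 against 16898 to 59504, without overlap. *F13a1*, a perivascular macrophage gene, was at 0 in all APP-SOCS3 samples, and *Erg* (endothelial) and *Gad2* (neuron) in all APP-GFP samples. *Cebpb* and *Stat3* thus fell together with RNA of other cells and with immediate early genes, as did *Junb*, which is itself on the immediate early list. The part of these in their values was not tested. The lists share members and are not independent. *Junb* is on the STAT3 responsive and immediate early lists, and *Stat3* on the STAT3 responsive and the JAK and STAT lists.

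The fourth comparison set APP-SOCS3 against WT-GFP astrocytes and shares its samples with the previous comparisons. *Socs3*, which the vector carries, was called higher with a log2 fold change of 4.49 (SE 0.29, adjusted *p* = 8.26e-06, limma) and a ratio of means of 23.3, again as 1 of 8 members. All 5 APP-SOCS3 samples lay above all 7 WT-GFP samples (exact permutation *p* = 0.00253, the smallest possible). Of 22958 genes 5.21% were called, 3.19% higher and 2.02% lower, 0.0305% passed adjustment and 0.566% did not overlap.

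The other members had log2 fold changes between -0.86 (*Socs2*, 95% interval -3.15 to 1.43) and 1.62 (*Socs4*, -2.09 to 5.32), with a median of -0.08 against 0.19 over all genes. *Socs6* was best resolved, at -0.08 (-0.79 to 0.63). Without the 3 WT-GFP libraries with few genes *Socs2* was called lower (-1.69, unadjusted *p* = 0.0256, adjusted *p* = 0.513, limma), and *Socs4* had -1.06 in place of 1.62. *Socs2* was also called lower without WT-GFP 3 alone, the sample in which it is at 0 (-1.65).

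Of the partners, *Cntfr*, the receptor of ciliary neurotrophic factor, was called higher (1.23, adjusted *p* = 0.394, limma), 1 of 20 receptors (median -0.05), with 2828 ± 1547 in APP-SOCS3 (SD, n = 5) and 1135 ± 388 in WT-GFP (SD, n = 7). Among 10 JAK kinases and STATs *Stat5a* was called higher (3.02) and *Stat6* (-2.34, without overlap) and *Stat3* (-0.63) lower, with a median of -0.11. Of 16 STAT3 responsive genes 4 were called lower (median -0.55), *Gfap* (-0.68) and *Cebpb* (-1.16) with the smallest *p*, and 10 of 22 immediate early genes were, *Btg2* (-0.85) and *Klf2* (-2.08) among them (median -0.75). None of 7 ligands (median 0.18), 9 genes of the ubiquitin ligase (median -0.07), 12 other inhibitors (median 0.26) or 6 STAT5 responsive genes (median 0.36) was called. Markers of microglia (13 of 20), endothelial cells (13 of 20), mural cells (5 of 12), oligodendrocyte precursors (2 of 9) and oligodendrocytes (1 of 7 tested) were called lower here too, and 0 of the 8 perivascular macrophage, 13 neuron and 15 astrocyte genes tested were called. Their part in the values of *Stat6*, *Cebpb*, *Gfap* and the SOCS members was not tested.

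**Figure D4:**
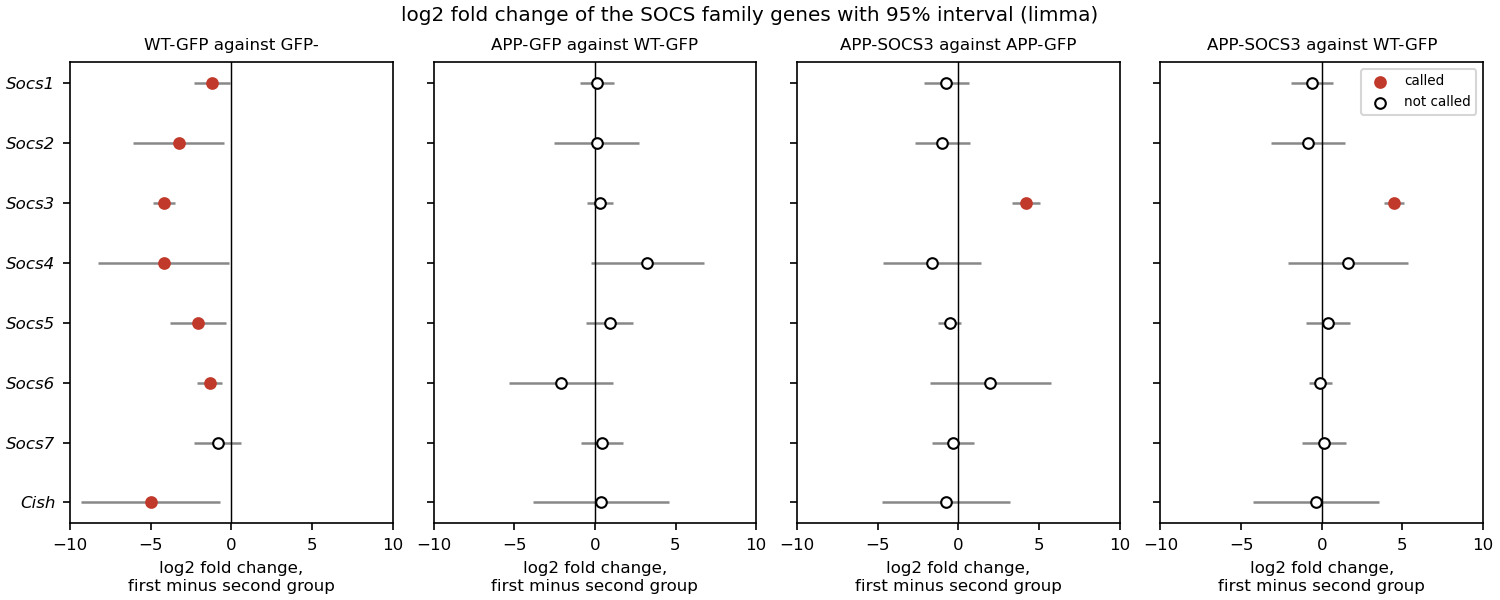
log2 fold change of each SOCS family gene in the 4 comparisons (limma, first minus second group), with 95% intervals as lines, filled points called and open points not called. In the first panel 7 of 8 genes are called lower in astrocytes, and in the second none is called. In the last pair of panels *Socs3* alone, which the vector carries, is called.

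Within the 16 GFP+ samples, genes were ranked by the likeness of their pattern to each member, as Pearson's r of log2(level + 1) over 11425 to 11427 named genes with a mean of at least 100. These are the highest of many values and are given as a description. *Socs2* was closest to *Islr* (r = 0.94, Spearman's rho 0.91), and r was 0.88 without the 2 samples farthest from the *Socs2* median. *Socs5* was closest to *Tbcel* (r = 0.92, rho 0.96, 0.90 without 2 samples), *Socs7* to *Stk11* (0.88, 0.81 and 0.77), *Cish* to *Pold2* (0.83, 0.73 and 0.79) and *Socs1* to *Sf3a2* (0.80, 0.71 and 0.55). *Cish* was at 0 in 6 of the 16 samples, of which only WT-GFP 1 and WT-GFP 3 were left out, so its last value still holds zeros. *Socs4* was closest to *4933404O12Rik* (0.96, 0.75 and 0.93), with *Slc11a1* and *Lpl* next, and its samples form 2 clusters, with 4 samples at or near 0. Of these only WT-GFP 2 and WT-GFP 3 were left out, so the last value of *Socs4* still holds samples at or near 0. *Socs6* was closest to *Hrh1* (0.99, 0.82), and r fell to 0.69 without APP-GFP 2, where it is at 0, and APP-SOCS3 3, so the first value rested on these samples. *Socs3* levels fall into separate clusters, APP-SOCS3 and the rest, so no pooled value is given for it.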

How the data were processed

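RNAseq was carried out on hippocampal cells sorted by FACS. Per the labels and the methods, the authors amplified cDNA by PCR (SMARTer, Nextera XT), mapped reads to mm10 with STAR 2.4.0, counted them on constitutive regions of FAST DB genes and scaled them with DESeq2. Each deposited value is therefore a signal, reads divided by 1 size factor per sample, and 100% of them gave whole reads (tolerance 0.01). Strand and multiply mapped reads are not given in the sources used here.

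Here, log2(level + 1) was compared with limma 3.58.1 (R 4.3.3, mean-variance trend) for entries with a mean of at least 10 in either group, and each member by 2-sided exact permutation tests. Alternatives were pseudocounts of 0.1 and 10, other minimum levels and scalings, all 19 samples in one fit, Benjamini-Hochberg adjustment, edgeR 4.0.16 and DESeq2 1.42.0 on the recovered reads, a replicate block and leaving out samples. Leaving out the 4 libraries with under 20000 genes and using other entries were chosen after seeing the data. All members are named, with the 2 called genes of smallest *p* in each direction from 8 pathway lists, further markers, and the closest gene by correlation. One gene that this rule names is not reported here. Members and lists were chosen with earlier results of these data known. Intervals are 95%. The tests were checked on simulated data.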

Additional observations from a re-analysis of the deposited data

Results flagged for a closer look

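Of 24 sets of samples (8 genes in 3 astrocyte groups), 3 held a sample far from the others of its group by Dixon's criterion. Chance would give about 1 in 20 for independent sets of normally distributed values. The sets here share libraries, so this rate is a rough guide only. *Socs3* was 37750.1 in APP-SOCS3 2, against 13296 to 16050.4 in the other 4 samples. *Socs7* was 819.9 and *Cish* 299.8 in the same library, WT-GFP 2, one of those with fewer than 20000 genes detected. The unnamed entry inside *Socs3* on chromosome 11, which carries no symbol and so was not taken as a member, had a mean level of 731 ± 362 in APP-SOCS3 (SD, n = 5), above the 170.5 ± 63.9 of WT-GFP (SD, n = 7), while its share of the *Socs3* level was lower (3.80% ± 0.20 against 20.2% ± 2.00).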

How the results depend on the processing

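Members called between APP-SOCS3 and APP-GFP numbered 1, *Socs3*, under the 12 alternatives run on the 9 samples, and 1 between APP-SOCS3 and WT-GFP except for 2 without the libraries with few genes. Leaving out single samples gave 1 to 1 and 1 to 2. Between APP-GFP and WT-GFP the count was 0 except for 1 with the replicate block and 2 without the libraries with few genes, and 0 to 1 when single samples were left out. Between WT-GFP and GFP- it was 7, but 4 with a pseudocount of 0.1, 1 with equal upper quartiles, 2 with edgeR, 4 with DESeq2, 5 with all 19 samples in one fit, 4 with the replicate block, 2 with adjusted *p*, and 2 to 7 when single samples were left out, each GFP- sample lowering it (2, 3 and 2). The cause was not tested. The labels do not say whether replicate numbers pair the samples. Deviations of same-numbered samples had correlations of -0.18 to 0.24, which do not settle it, and the block result rests on a shared number only.

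Uncalled values changed sign as follows. For APP-GFP against WT-GFP, *Socs1* became -0.027 with DESeq2 and -0.026 with the replicate block (-0.080 to 0.31 without single samples), *Socs2* -0.18 with a pseudocount of 10, -0.50 with edgeR, -0.53 with DESeq2 and -0.80 without the libraries with few genes (-0.67 to 0.49), *Socs6* 0.37 without these libraries and 0.57 at its other entry (-3.01 to 0.33), and *Cish* -0.061, -0.75 and -0.81 with a pseudocount of 10, edgeR and DESeq2 (-0.31 to 1.77). For APP-SOCS3 against APP-GFP, *Socs6* became -0.41 without APP-GFP 2 (-0.41 to 2.93), and ranges without single samples crossed 0 for *Socs7* (-0.67 to 0.18) and *Cish* (-2.13 to 0.10). For APP-SOCS3 against WT-GFP, *Socs4* became -1.06 without the libraries with few genes, *Socs5* -0.020 with edgeR and -0.037 with DESeq2 (-0.027 to 0.61), and *Socs6* 1.51 at its other entry (-0.29 to 0.092), and ranges crossed 0 for *Socs7* (-0.14 to 0.64) and *Cish* (-1.17 to 0.49). Intervals of *Cish*, *Socs2*, *Socs4* and *Socs6* limit what could be detected in astrocytes, where each had at least 1 sample at 0.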
